A study of Mus musculus with 199 samples.

Results

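Chromosome 11 is one of the smaller and most gene-dense mouse autosomes. It was taken here as all 3047 of its 40 kb windows, out of 61816 windows on the 19 autosomes and 68162 rows in the whole table, and was compared with the other 18 autosomes. Of these windows 2970 had a sequence in which at most 50% of bases were undetermined, and they entered the main measures. The other 77 included 75 that precede position 3000001, where the assembled sequence of the chromosome begins.

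The calls came from genome architecture mapping (GAM) of 46C mouse embryonic stem cells, a Sox1-GFP knock-in line derived from E14tg2a cells of 129/Ola origin. All libraries thus came from 1 line, with no second genotype. Cryosections of 220 nm were cut, slices of nuclei (nuclear profiles) were laser-microdissected, 4 profiles were placed in each cap (4NP), and their DNA was amplified and sequenced as 1 library. The table held 186 4NP libraries, 11 water controls and 2 controls with human genomic DNA, all of which had failed the authors' quality control. The groups used below were the full collection (stained with cresyl violet, 34 libraries), crystal violet (16) against unstained (5), SYBR Gold (15 titled stained, 3 titled unstained), eosin in ethanol or water (8 each), propidium iodide (PI) without and with freezing (21 each), titled proteinase K volumes of 3, 4 or 8 µl in one format and 1 µl in another (7 each), and reagent protocols A and C (3 each). Smaller groups entered the totals over 4NP libraries and experiments: 20, 23 or 25 PCR cycles (2, 1 and 2 libraries), freezing after incubation (3) or no freezing (2), late (2) or early (1) freezing, the small (2) or large (1) kit, proteinase K at 1 µl (2) or 2 µl (1) in the first format, and 1 unstained library each in the eosin and PI experiments. In the SYBR Gold test the titles and the protocols disagree on which libraries were stained, and the titles were followed. The experiment that holds the crystal violet libraries is titled a cresyl violet test, and it is called the crystal violet experiment here. Each value is a call, 1 for a window with enough reads and 0 for any other, so sequencing depth is unknown and fewer copies of a locus cannot be told apart from poorer recovery of its DNA.

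In GAM a locus is recorded when the slice passes through it. A pair of neighbouring loci tends to be cut or missed jointly, and how far the calls of 2 windows go together (co-segregation) is measured by D′, the normalized linkage disequilibrium of the calls over libraries. A chromosome fills a territory of its own, so that a thin slice can pass through much of a chromosome or miss it. Gene-rich chromatin tends to lie in the nuclear interior and gene-poor chromatin at the nuclear lamina.

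The description of chromosome 11 as gene-dense held in the annotation. It had 1653 protein-coding genes, or 13.9 per Mb of determined sequence, which was second among the 19 autosomes after chromosome 7 (14.6 per Mb). Its mean GC content, 43.8%, was the highest of the 19. Gene-rich windows, the upper part when autosomal windows were split into 3 like-sized parts by protein-coding gene starts within the surrounding 1 Mb (9 or more), made up 55.1% of chromosome 11 and 35.5% of the other autosomes. Gene-poor windows, the lower part (3 or fewer), made up 23.8% and 36.9%.

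The windows that differed most in how many libraries called them are shown by their sequences, read from the mm9 (NCBIM37) assembly on the plus strand. The first is the central stretch of the window called in the most 4NP libraries, and the other two are the centres of windows called in none of them. Capitals mark bases covered by a run of 32 bases that occurs more than once in the assembly, counted on both strands.
Sfi1 window, chr11:3059941-3060060, called in 98 libraries: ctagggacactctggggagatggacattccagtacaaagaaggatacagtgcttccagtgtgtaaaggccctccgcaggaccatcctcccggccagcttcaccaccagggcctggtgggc
Gm12079 window, chr11:27779941-27780060, called in 0 libraries: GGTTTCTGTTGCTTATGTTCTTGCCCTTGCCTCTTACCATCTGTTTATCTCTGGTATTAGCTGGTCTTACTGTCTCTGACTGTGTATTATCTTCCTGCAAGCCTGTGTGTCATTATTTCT
Gm12613 window, chr11:60419941-60420060, called in 0 libraries: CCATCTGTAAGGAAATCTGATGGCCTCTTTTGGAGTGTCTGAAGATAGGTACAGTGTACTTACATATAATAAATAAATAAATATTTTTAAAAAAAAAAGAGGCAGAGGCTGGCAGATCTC

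Each 32-base run in the Sfi1 stretch occurred once in the assembly. The Gm12079 stretch had a median of 2 copies and the Gm12613 stretch a median of 6. Over the whole windows, 87.4% of 32-base runs in the Sfi1 window occurred once, against 0.951% in the Gm12079 window (chr11:27760001-27800000) and 2.27% in the Gm12613 window (chr11:60400001-60440000). Every 100th fully determined window of chromosome 11, 30 in all, ranged from 57.8% to 98.5% with a median of 91.8%. The lowest of these was the first determined window (chr11:3000001-3040000), also at Sfi1 and called in 54 libraries, so a low share of unique runs was not limited to windows without calls. The other windows called in no 4NP library were chr11:71000001-71040000, within Nlrp1b, an inflammasome sensor gene of which mice carry related copies, with 54.1% of runs occurring once, and the short window at the end of the chromosome (chr11:121840001-121843856), with 48.6%. These 4 were 0.135% of the determined windows of chromosome 11. On the other autosomes 0.877% of determined windows were called in no 4NP library.

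A chromosome 11 window was called in a median of 10 of the 186 4NP libraries (quartiles 8 and 13), against 9 (7 and 11) on the other autosomes. The 3 windows called most were the first 3 determined windows of the chromosome. They were called in 54, 98 and 85 libraries in their order along the chromosome, and all lie in or overlap Sfi1, which encodes a centrin-binding protein of the centrosome. At least 1 of the 3 was called in 109 libraries. They held 237 of the 31597 chromosome 11 calls, or 0.75%. None of the 3 was called in any of the 9 water controls with few calls or in any of the 16 crystal violet libraries. The next windows were chr11:108840001-108880000 in 35 libraries, with the gene model Gm11668, and chr11:104360001-104400000 in 29, within Cdc27, a subunit gene of the anaphase-promoting complex. The window of Ncor1 came next with 23. The main coverage results are therefore also given without the first 3 windows.

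The share of windows called was higher on chromosome 11 than on the other autosomes over all 4NP libraries together, and it was the highest of the 19 autosomes, but the difference did not pass the test after adjustment for the 19 autosomes. The share of chromosome 11 windows called ran from 0% to 41%, with a median of 1.55%, while that of the other 18 autosomes ran from 0.00176% to 29.5%, with a median of 2.56%. The ratio of the summed shares was 1.17 ± 0.0738 (jackknife SE over libraries, n = 186). Chromosome 11 was higher in 109 of the 186 libraries. A two-sided sign-flip permutation test of the differences gave p = 0.0208, or 0.395 after Benjamini-Hochberg adjustment over the 19 autosomes. In this test 0 of the 19 autosomes passed (0%), chromosome 11 was the only one with an unadjusted p below 0.05, and the next highest ratio was 1.08 ± 0.0741 on chromosome 8. Without the first 3 windows the ratio was 1.16 ± 0.0738, and against windows of the other autosomes weighted to the same GC content it was 1.12 ± 0.0713.

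**Figure D1:**
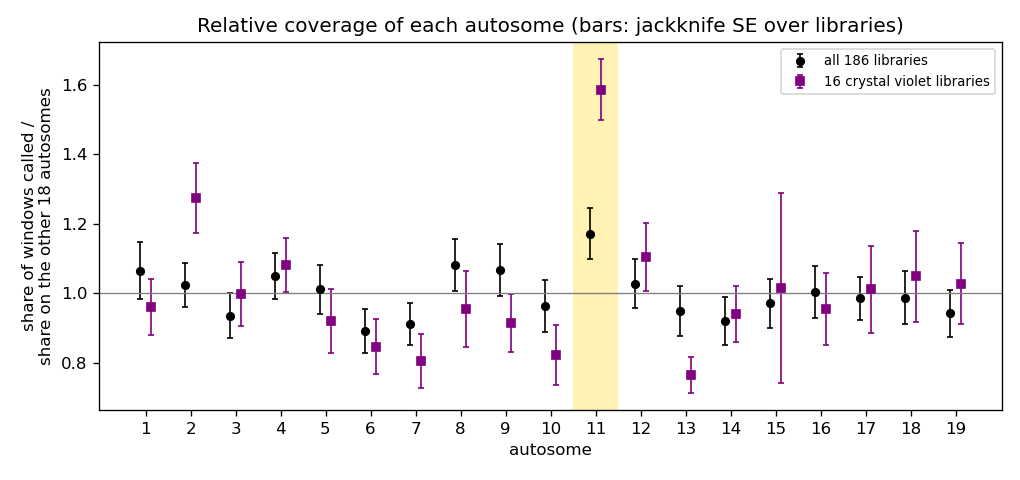
Share of windows called on each autosome divided by the share on the other 18, over all 186 4NP libraries (circles) and over the 16 crystal violet libraries (squares), with jackknife standard errors over libraries. Chromosome 11 (shaded) was highest in both, at 1.17 and 1.59.

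Across the 19 autosomes, which share the same libraries, relative coverage had a Pearson correlation of 0.458 with mean GC content and of 0.148 with gene density. Without chromosome 11 these were 0.202 and -0.182. Chromosome 7, which is as gene-dense, had a relative coverage of 0.912 ± 0.0604. Chromosome 19, the next in gene density after chromosome 11, had 0.943 ± 0.0679.

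Single libraries differed from each other far more than chromosome 11 differed from the other autosomes. In the 115 libraries with at least 1% of the other-autosome windows called, the ratio of chromosome 11 to the other autosomes ran from 0.0134 to 3.17, with a median of 1.10 and quartiles of 0.524 and 1.64. The ratio was above 2 in 15 of these libraries and below 0.1 in 10. On the other autosomes, counted in the same way, between 7 and 15 libraries were above 2 and between 6 and 12 were below 0.1. Chromosome 11 thus shared the highest count above 2. As a share of libraries above 2 it was the highest of the 19, at 13.0% against 12.8% on chromosomes 1 and 8. Its count below 0.1 lay within the range of the others. Its standard deviation of log2 ratios, 1.70, was the seventh largest of the 19. The 11 libraries with 0 chromosome 11 calls had at most 108 calls on the other autosomes, so every library above that had at least 1.

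The extreme libraries had almost no chromosome 11 calls or a large part of the chromosome called. Replicate 2 of the group titled 1 µl proteinase K had 7170 calls on the other autosomes (12.6% of windows) and 5 on chromosome 11 (0.168%, Wilson 95% interval 0.0719% to 0.394%). Of these 5 calls, 3 were the first 3 windows at Sfi1. Replicate 4 of the same group, with 4915 calls elsewhere, also had 5 calls on chromosome 11, and 3 of them were the same windows. At the other extreme, replicate 2 of the 3 µl group had 1217 calls on chromosome 11, 41% of its windows (39.2% to 42.8%), against 14.7% of the windows elsewhere. Both intervals treat windows as independent draws and so cover counting error alone.

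**Figure D2:**
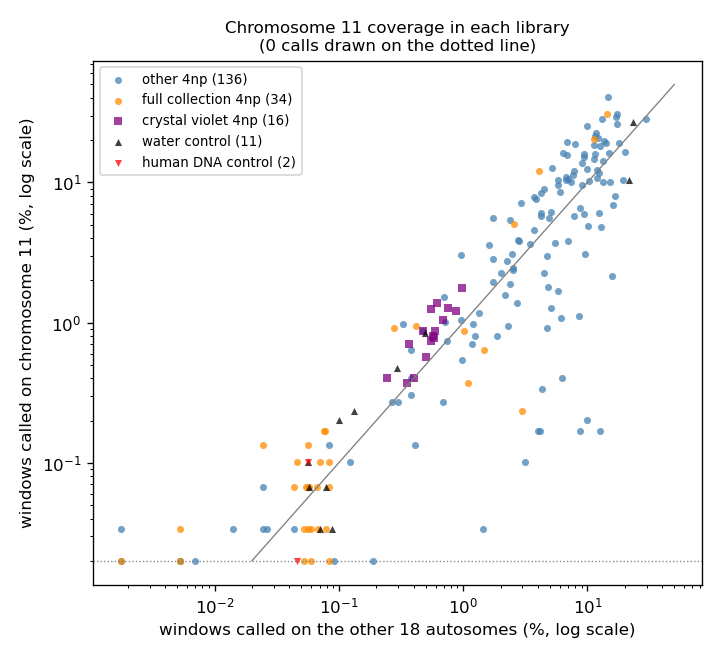
Percent of chromosome 11 windows called against percent called on the other 18 autosomes, 1 point per library, both axes logarithmic, with the line of equality. Points far below the line are libraries almost without chromosome 11 calls (ratio down to 0.0134), and the 16 crystal violet libraries lie together on or above the line.

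In the crystal violet libraries chromosome 11 was called more than the other autosomes throughout. Their share of chromosome 11 windows called was low, from 0.37% to 1.75% with a median of 0.842%, and it was above the share of the other autosomes in 16 of 16 libraries. The ratio of summed shares was 1.59 ± 0.0882 (n = 16), with an adjusted p of 5.7e-04 over the 19 autosomes in the sign-flip permutation test. In this group 15.8% of the autosomes passed, which were chromosomes 11 and 2 (1.27 ± 0.0997) above and chromosome 13 (0.764 ± 0.0521) below the others. Weighting to the same GC content gave 1.64 ± 0.105 for chromosome 11. The water control of the same experiment had a ratio of 1.62 from 14 calls on chromosome 11. Together, the 9 water controls with few calls had 61 calls on the 2970 chromosome 11 windows and 778 on the 56893 windows elsewhere. Their single ratios ran from 0.383 to 2.02. Whether the calls of these controls and of the crystal violet libraries share a source was not tested.

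Called windows were scattered in the crystal violet libraries. Their mean run of adjacent called windows on chromosome 11 was between 1 and 1.09 windows. In the 71 4NP libraries below 1% coverage, which include all 16 of them, the relative coverage of chromosome 11 was 1.48 ± 0.127 with an adjusted p of 0.00266, and 15.8% of autosomes passed. In the other 55 of these libraries it was 1.40 ± 0.223, second to chromosome 2 (1.46 ± 0.218), with an adjusted p of 0.22, so the call below 1% coverage was lost without the crystal violet libraries. The full collection, the largest title group, had a higher ratio but a wide spread, at 1.79 ± 0.259 (n = 34) with chromosome 11 higher in 19 libraries and an adjusted p of 0.676. In the full collection the median share of chromosome 11 windows called was 0.0842%, while replicates 5, 8 and 14 had 608, 359 and 908 calls on it. Without the first 3 windows the ratios were 1.59 in crystal violet libraries, 1.47 below 1% coverage and 1.79 in the full collection.

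The question of whether a preparation step changed the representation of chromosome 11 was asked in 10 comparisons between title groups, each on the log2 ratio of coverage and the log2 ratio of run length. Libraries with at least 200 calls on the other autosomes and at least 1 on chromosome 11 entered, and 14 of the 20 tests had at least 3 libraries on both sides. The only comparison that passed after adjustment over these tests was crystal violet against unstained. The 5 unstained libraries had ratios of 0.55, 0.138, 1.34, 1.11 and 0.193. The 15 crystal violet libraries that entered ranged from 1.00 to 2.26 with a median of 1.47. The groups overlapped, and crystal violet was higher in 69 of 75 pairs of libraries. The mean log2 ratio was 0.60 ± 0.36 (SD, n = 15) against -1.10 ± 1.47 (n = 5), a difference of 1.71 (exact permutation test, two-sided, p = 0.00116, adjusted p = 0.0163). Without the first 3 windows the difference was 1.72, with the same adjusted p.

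Run length relative to the other autosomes differed in the same comparison, at -0.00 ± 0.05 in crystal violet and -0.48 ± 0.49 in unstained libraries on the log2 scale (difference 0.47, exact permutation test, adjusted p = 0.0266). Both calls were lost when unstained replicate 1, 2 or 5 was left out, with an adjusted p of 0.065 for coverage and 0.107 for run length in each case. The differences in coverage and run length were then 1.77 and 0.476 without replicate 1, 1.27 and 0.409 without replicate 2, and 1.39 and 0.298 without replicate 5. In crystal violet libraries mean runs were close to the minimum of 1 window on chromosome 11 (1 to 1.09) and elsewhere (1.01 to 1.04). Their log2 ratio of run length therefore could not move far from 0. The groups also differed in total coverage (0.569% against 8.65% of other-autosome windows on average over the 16 and 5 libraries) and shared no final number in the codes of their titles, which may be a plate column though the labels do not say so, and stain, coverage and this number cannot be told apart.

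None of the other comparisons that could be tested passed. Eosin in ethanol gave a mean log2 ratio of 0.23 ± 0.51 (n = 8) and eosin in water -0.24 ± 1.20 (n = 8), with an adjusted p of 0.717 in the exact permutation test. PI-stained libraries gave -0.86 ± 1.65 (n = 18) without freezing and -0.27 ± 1.40 (n = 20) with it, also with an adjusted p of 0.717 (permutation test). For proteinase K, the means were -0.52 ± 2.37 at 3 µl (n = 7), 0.48 ± 0.78 at 4 µl (n = 7), -0.03 ± 0.95 at 8 µl (n = 5) and -1.30 ± 3.30 in the group titled 1 µl (n = 7), with adjusted p between 0.717 and 0.944 in the exact permutation tests of coverage. In each of these tested comparisons the groups overlapped. The full collection (-0.11 ± 1.73, n = 9) could not be tested against its 2 water controls that passed, SYBR Gold had 1 unstained library that passed (log2 ratio 1.66, above each of the 14 stained libraries at -0.21 ± 1.69), and protocol A had 1 that passed (0.51) against 0.99 ± 0.11 in protocol C (n = 3). By experiment, the relative coverage of chromosome 11 was above 1 in 10 of 11 experiments. It ran from 0.807 in the crystal violet experiment, whose unstained libraries carried most of its calls, to 1.91 in the reagent volume test. The largest experiment, PI staining and freezing (43 libraries), was counted as above 1 at 1.00 ± 0.0973. The kit test (1.02) and the early freezing test (1.05) had 3 libraries each and no SE. The other autosomes were not counted in this way.

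Controls gave few calls on chromosome 11 with 2 exceptions. The 2 human DNA controls had 0 calls (Wilson 95% upper limit 0.129%, or 0.101% if a count of 0 is taken to allow 3 calls) and 3 calls (0.101%, Wilson interval 0.0344% to 0.297%). Among the water controls, 9 had between 1 and 25 chromosome 11 calls, the highest being 0.842% (0.571% to 1.24%) in full collection replicate 6. Full collection replicate 4 had 799 calls (26.9%, 25.3% to 28.5%), a ratio of 1.16 to its other autosomes, and the SYBR Gold unstained water control had 311 (10.5%, 9.42% to 11.6%), a ratio of 0.485. In both, chromosome 11 calls formed runs, of 3.16 and 1.49 windows on average.

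Windows in gene-rich surroundings were called more often than windows in gene-poor surroundings on chromosome 11, as on every other autosome. The mean share called over 186 libraries was 6.34% in the 1635 gene-rich windows and 4.60% in the 707 gene-poor windows, a ratio of 1.38 ± 0.0795 (1.36 ± 0.0788 without the first 3 windows). Gene-rich windows were higher in 123 libraries and lower in 51 (sign-flip permutation test, two-sided, p = 1e-05, the smallest the resamples can give). On the other autosomes the shares were 5.35% and 4.37%, a ratio of 1.22 ± 0.0224.

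The gap between gene-rich and gene-poor windows was 1.73 percentage points on chromosome 11 and 0.977 on the other autosomes, with p = 0.00803 for the difference of these gaps. When every autosome was compared with the other 18 in the same way, chromosome 11 had an adjusted p of 0.0763 and ranked second by ratio after chromosome 15 (1.51 ± 0.0954), and 0 of 19 autosomes passed (0%), with an unadjusted p below 0.05 for 5 of them. The ratio was above 1 on all 19 autosomes, and on the other 18 it ran from 1.10 to 1.51 with a median of 1.21. Gene-rich windows of chromosome 11 had a mean GC content of 46% and gene-poor windows 39.7%. With gene-poor windows weighted to the GC content of gene-rich ones the ratio was 1.24 ± 0.0664. By experiment it was above 1 in 9 of 11, and the 2 below were the crystal violet experiment (0.941 ± 0.209, n = 21) and freezing after incubation (0.954 ± 0.496, n = 5).

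**Figure D3:**
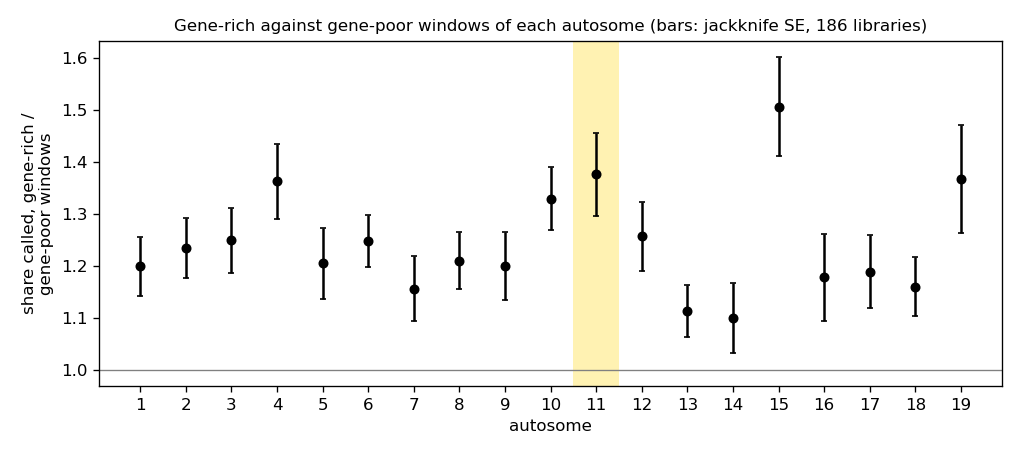
Share of gene-rich windows called divided by the share of gene-poor windows called on each autosome, with jackknife standard errors over 186 4NP libraries. All 19 values lie above 1, chromosome 11 (shaded) at 1.38 and chromosome 15 highest at 1.51.

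Along the chromosome, the blocks of low coverage lay mostly in the gene-poor proximal part. Of 25 blocks of up to 5 Mb, 19 had a relative coverage above 1 and 9 were more than 2 SE above it. Of the other 6, 5 lay in chr11:10000001-45000000 and had 1 to 4.6 protein-coding gene starts per Mb. The blocks were measured against the other autosomes, over which chromosome 11 as a whole stood at 1.17. Blocks of other autosomes were not measured, so these counts have no background. The first block (chr11:3000001-5000000) stood at 1.59 ± 0.154, but without its first 3 windows it was 1.13 ± 0.155. The next highest were chr11:105000001-110000000 at 1.42 ± 0.164 and chr11:60000001-65000000 at 1.40 ± 0.137. The lowest was chr11:35000001-40000000 at 0.784 ± 0.105, the only block more than 2 SE below 1. It holds 5 protein-coding gene starts, 1 per Mb, among them that of Odz2, a teneurin gene that spans over 1 Mb.

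Over the 25 blocks relative coverage had a Pearson correlation of 0.629 with gene density and 0.814 with GC content (0.595 and 0.804 without the first 3 windows). Neighbouring blocks share libraries and base composition, so these are descriptions. Block by block the order was not that of gene density alone, since chr11:110000001-115000000, with 7.2 gene starts per Mb, had 1.29 ± 0.163, and chr11:95000001-100000000, the densest block with 37.8 per Mb, had 1.29 ± 0.129.

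**Figure D4:**
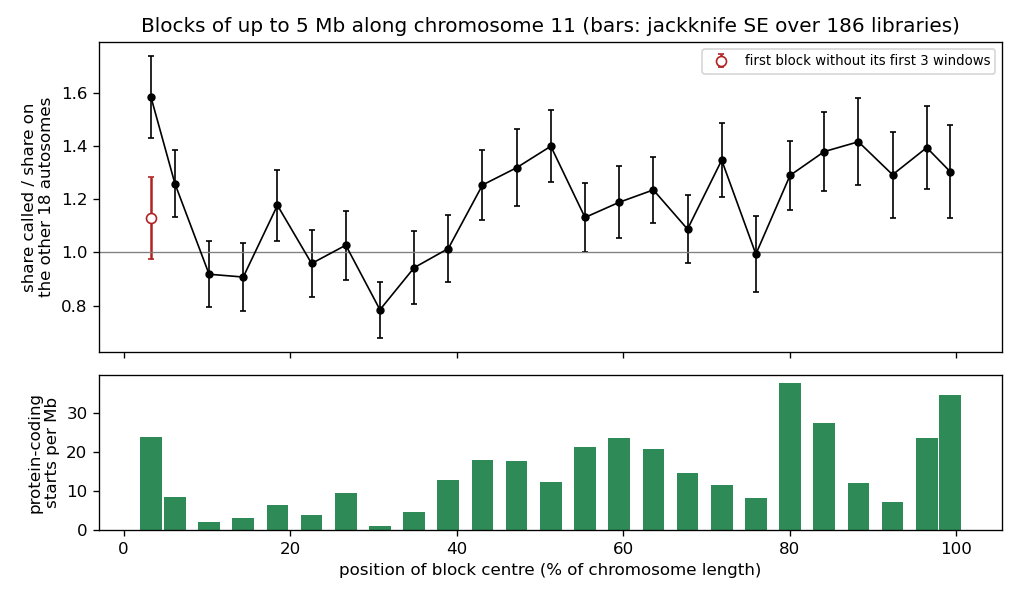
Relative coverage of blocks of up to 5 Mb along chromosome 11 against the other 18 autosomes, with jackknife standard errors over 186 4NP libraries, above the density of protein-coding gene starts. The filled first point (1.59) falls to 1.13 without the first 3 windows (open point), and the minimum of 0.784 lies in the block with 1 gene start per Mb.

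Genes with known roles in embryonic stem cells were looked up at the window of their start. The 7 genes of LIF, growth and pluripotency signalling were each called in 13 to 18 libraries, all above the chromosome 11 median of 10, with 50.6% of its windows called in 10 libraries or fewer. Of these genes Vezf1, Msi2, Trim25 and Nog lie within 1.28 Mb and share libraries (Msi2 and Nog were called together in 6, against 1.26 by independence), so the 7 are not separate observations. Stat3, which carries the LIF signal to the nucleus, had 13, and its inhibitor gene Socs3 had 15. Grb2, the adaptor that links receptors to the ERK pathway, had 16. Msi2, an RNA-binding protein gene, had 18, Vezf1, a zinc finger factor gene, had 17, Trim25, a ubiquitin ligase gene, had 16, and Nog, the BMP antagonist gene, had 13. The quartiles of all chromosome 11 windows, 8 and 13, set the scale of these counts, and the genes were chosen for their roles and not drawn at random.

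Among the Polycomb and chromatin genes, Ncor1, a nuclear receptor co-repressor gene, had 23, the most of any gene looked up. Suz12, a core subunit gene of Polycomb repressive complex 2, had 15, and Smarce1, of the SWI/SNF remodeller, had 13. Cbx2 and Cbx8, Polycomb genes that start in the same window, had 9. Of the transcription machinery, Coil (Cajal bodies) had 16, Polr2a (the largest subunit of RNA polymerase II) 14, Ints2 (Integrator) 13, Med13 (Mediator) 9 and Supt4h1 (elongation factor) 8. Genome maintenance genes ranged from 10 for Rad51c to 15 for Aurkb and Brip1, with 11 for Top2a.

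The genes named for other tissues lay on both sides of the median. Gabrb2, a GABA-A receptor subunit gene of neurons, had 7, the fewest. Accn1, an ion channel gene, had 8, and Myh1 of skeletal muscle and Krt10 of epidermis had 9 each. Il4, a T helper cytokine gene, had 17. Meis1 and Ikzf1, regulators of blood development, had 14 each. Of all the genes looked up, the promoters of those called in the most and the fewest libraries (Ncor1, Msi2 and Gabrb2) are shown, as the 120 bases before the annotated start in the sense of the gene (mm9), with CpG dinucleotides in capitals.
Ncor1, chr11:62272044-62272163, minus strand, 23 libraries: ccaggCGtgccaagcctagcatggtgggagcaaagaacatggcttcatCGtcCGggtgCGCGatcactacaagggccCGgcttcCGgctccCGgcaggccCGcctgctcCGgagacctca
Msi2, chr11:88579828-88579947, minus strand, 18 libraries: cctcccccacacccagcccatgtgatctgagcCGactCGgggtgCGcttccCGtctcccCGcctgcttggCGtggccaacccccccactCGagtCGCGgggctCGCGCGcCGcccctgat
Gabrb2, chr11:42233139-42233258, plus strand, 7 libraries: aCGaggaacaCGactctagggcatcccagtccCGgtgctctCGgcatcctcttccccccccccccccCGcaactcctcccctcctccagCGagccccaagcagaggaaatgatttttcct

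The 3 stretches hold 10, 13 and 6 CpG dinucleotides. The 40 kb windows around them, over which the calls were made, had a GC content of 41.1%, 46.1% and 38.8%, so the window of Ncor1 was called in the most libraries of the 3 with a GC content between the other two.

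A run is a stretch of adjacent called windows, and how its length relates to the fibre in a slice was not tested. In the 115 libraries with at least 1% coverage, the mean run on chromosome 11 was between 1 and 4.05 windows, with a median of 1.44, and the mean run over the other autosomes pooled was between 1.05 and 4.09, with a median of 1.45. The mean log2 ratio was -0.04 ± 0.25 (SD, n = 115), with chromosome 11 longer in 52 libraries (sign-flip permutation test, adjusted p = 0.072). Against this pooled reference 94.7% of the autosomes passed, all 18 others with shorter runs than the rest, so a single autosome is shorter than the pool by this measure and the value for chromosome 11 is read against theirs. The pool weights each chromosome by its number of runs in a library, and whether this accounts for the shift was not tested. With the other 18 autosomes taken one by one instead, an alternative chosen after seeing the data, chromosome 11 was longer by 0.07 on the log2 scale (68 of 115 libraries), the highest of the 19, with an adjusted p of 0.0978.

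The longest run on chromosome 11 was 35 windows, or 1.4 Mb (chr11:68360001-69760000), in replicate 14 of the full collection. It holds 67 protein-coding gene starts, among them those of Aurkb and Polr2a. Runs of 31 windows followed at chr11:89200001-90440000 in replicate 4 of the 4 µl proteinase K group, with 6 gene starts, and at chr11:118560001-119800000 in replicate 2 of the 25 PCR cycle group, with 17 gene starts. The top 5 were completed by runs of 28 windows at chr11:6520001-7640000 in the same 25-cycle library and at chr11:60480001-61600000 in the same full collection library. Another run of 28 windows, at chr11:116680001-117800000 in that full collection library, tied with them. Of the 17159 runs on chromosome 11, 64.8% were single windows and 7 were of at least 25 windows. On the other autosomes 66.2% were single windows and the longest run was 79 windows. There 125 of 289696 runs were of at least 25 windows, or 0.0431%, against 0.0408% on chromosome 11.

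Co-segregation on chromosome 11 fell with distance as on the other autosomes, and no distance differed beyond error. Over the 186 libraries, mean D′ minus that of window pairs on different autosomes was 0.691 ± 0.0437 for adjacent windows (40 kb), 0.575 ± 0.04 at 200 kb and 0.412 ± 0.0327 at 1 Mb. It was 0.277 ± 0.0333 at 4 Mb, 0.196 ± 0.0424 at 10 Mb, 0.192 ± 0.0334 at 20 Mb and 0.193 ± 0.0377 at 40 Mb. At 40 Mb D′ was thus still above its level between autosomes by more than 2 SE. Counted instead as log2 of observed over expected co-calls, chromosome 11 had 1.47 at 40 kb and 0.04 at 10 Mb and was -0.00437 at 20 Mb and -0.00525 at 40 Mb. That measure is set against independence, where D′ before subtraction was also slightly below 0 at these distances (-0.0229 at both), so the excess at 20 and 40 Mb is one over pairs on different autosomes and not over independence.

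The difference from the other 18 autosomes ran from -0.0348 ± 0.0216 at 40 kb to 0.0401 ± 0.0382 at 40 Mb, within 2 SE at each of the 7 distances. At each of these distances 0 of 19 autosomes lay beyond 2 SE of the rest (0%). For adjacent windows chromosome 11 had the lowest value of the 19 autosomes, and at 40 Mb it was the third highest. Each autosome's own level between autosomes is subtracted here, and that of chromosome 11 (-0.215) was the least negative of the 19. Before subtraction its D′ for adjacent windows, 0.476, was the fifth highest, and its difference from the others was 0.0172 ± 0.0204.

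**Figure D5:**
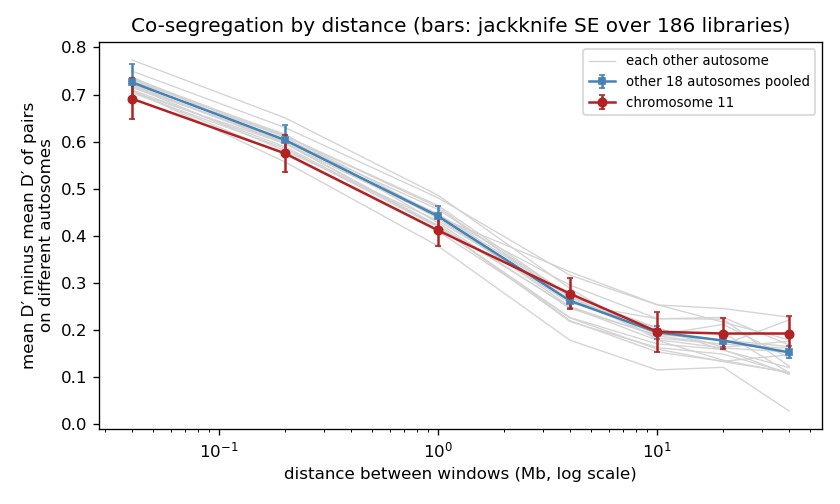
Mean D′ of window pairs on the same autosome minus that of pairs on different autosomes, against distance on a log scale, for chromosome 11 (circles), the other 18 pooled (squares) and each singly (grey), with jackknife standard errors over 186 libraries. Chromosome 11 falls from 0.691 at 40 kb to 0.193 at 40 Mb and stays within error of the pooled curve.

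Within single title groups of at least 15 libraries, the values were less precise. In the full collection only 9 of the 34 libraries had at least 200 calls on the other autosomes, so its window pairs rest on few libraries. In PI-stained libraries (n = 21) D′ above the different-autosome level was 0.978 ± 0.07 at 40 kb and 0.103 ± 0.137 at 40 Mb, and in frozen PI-stained libraries (n = 21) 0.77 ± 0.12 and 0.183 ± 0.0815. Neither differed from its other autosomes by 2 SE at any distance. At 20 Mb, chromosome 11 exceeded the other autosomes by 0.268 ± 0.0794 in the full collection (n = 34, 63 window pairs) and by 0.359 ± 0.115 in SYBR Gold libraries (n = 15, 32 pairs). At this distance 15.8% of autosomes in the full collection and 21.1% in SYBR Gold libraries lay beyond 2 SE. The others past this limit lay below the rest, on 1 pair each for chromosomes 18 and 19 in the full collection and on 13, 4 and 4 pairs for chromosomes 2, 8 and 19 in SYBR Gold libraries, while chromosome 11 was above the rest. Its value at 20 Mb was the fourth highest of the 19 in both groups, and the other 6 distances showed no difference beyond 2 SE, with -0.0142 ± 0.397 at 10 Mb and -0.00366 ± 0.4 at 40 Mb in the full collection and 0.211 ± 0.142 and 0.0118 ± 0.22 in SYBR Gold libraries. In PI-stained libraries the difference at 20 Mb was 0.0385 ± 0.143, and -0.0352 ± 0.0946 in frozen ones. Crystal violet libraries had at most 3 chromosome 11 pairs at a distance, and no value is given.

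Adjacent windows in gene-rich surroundings on chromosome 11 had a mean D′ of 0.493 (1596 pairs), against 0.433 in gene-poor surroundings (679 pairs), a difference of 0.0601 ± 0.0298. On the other autosomes the difference was 0.0423 ± 0.0115. At 200 kb and 1 Mb it was 0.0673 ± 0.042 and 0.0407 ± 0.0578 on chromosome 11, and 0.0539 ± 0.0154 and 0.0233 ± 0.0227 on the others. At 4, 10 and 20 Mb the differences on chromosome 11 were 0.175 ± 0.114, 0.148 ± 0.128 and 0.151 ± 0.115, within 2 SE with 151 to 216 gene-poor pairs. On the other autosomes they were 0.0886 ± 0.0304, 0.147 ± 0.0294 and 0.114 ± 0.0313, beyond 2 SE. At 40 Mb chromosome 11 had 0.0497 ± 0.224, with 61 gene-poor pairs, and the others 0.145 ± 0.0307.

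The genes between Ints2 and Nog (chr11:86024183-89163873) illustrate the counts behind D′. Coil and Trim25, in neighbouring windows called in 16 libraries each, were called together in 8, where independent calls would give 1.38 (D′ = 0.453). Msi2 and Coil, 0.24 Mb apart, were called together in 7 libraries (1.55 by independence), and Ints2 and Msi2, 2.52 Mb apart, in 6 (1.26). Ints2 and Rad51c, 1.16 Mb apart, shared 1 library (0.699). Counts this small do not order single pairs.

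No autosome stood out as a partner of chromosome 11. Mean D′ between chromosome 11 windows and those of another autosome ran from -0.275 ± 0.0585 with chromosome 3 to -0.167 ± 0.0613 with chromosome 1. A pair of windows never called in the same library has a D′ of -1, however few libraries called each window. The negative means are therefore not read as chromosomes avoiding each other. Of the 18 partners, 0 differed from the rest by more than 2 SE. Over the 18 partners the Spearman correlation of this value with gene density was 0.0774, and chromosome 7, the other most gene-dense autosome, ranked 16th. The mean D′ over pairs of windows on different autosomes, -0.215, is the level subtracted above. It differed between title groups, at 0.198 in the full collection and -0.31 in PI-stained libraries.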

How the data were processed

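Per the labels, DNA of 46C cells was amplified with Sigma WGA4 and sequenced as Nextera libraries. The authors aligned reads to mm9 with Bowtie2 (version 2.1 in the submitters' processing notes), removed duplicates with Samtools and called 40 kb windows with at least 4 reads positive with GAMtools. The deposited values are these calls (0 or 1), not counts, so depth and its precision are unknown.

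Groups followed the titles, and replicate numbers only name libraries. No 2 of the 4NP libraries had identical calls. Nothing states that libraries of a group came from separate cultures, so p-values measure the spread between libraries. GC content and genes came from NCBIM37 and GENCODE M1. Relative coverage was the ratio of summed shares with jackknife SE, and shares of single libraries had Wilson 95% intervals. Tests were two-sided sign-flip permutations (100000 resamples) over libraries, and permutations between groups, exact up to 5000000 splits, with Benjamini-Hochberg adjustment and a threshold of 0.05. D′ used windows called in at least 2 libraries, minus the mean of 20000 random pairs of windows on different autosomes for each autosome. An SE distance above 2 was taken as beyond error. Scripts used Python 3.11 with numpy, pandas and scipy and were tested on simulated data. The windows called most, the longest runs, blocks, and genes of known roles were named by rule, some of which, like the gene clusters, are not reported here. The members and lists were chosen with earlier results of these data known. Alternatives changed windows, reference, library minimum and measure. Chromosomes X, Y and unplaced sequences were not used here.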

Additional observations from a re-analysis of the deposited data

Results flagged for a closer look

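In groups of 4 to 10 libraries, 16 sets of values were searched for a library far from the others, where chance flags about 1 in 20. Unstained replicate 3 of the crystal violet experiment had 19% of chromosome 11 windows called, against at most 3.8% in the other 4. Full collection water control replicate 4 had 26.9%, against at most 0.842% in the other 5. The contrast of crystal violet with unstained libraries differed in the log2 relative coverage of chromosome 11, by 1.71, and in its log2 relative run length, by 0.47, as tested in the report.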

How the results depend on the processing

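Chromosome 11 stayed the highest autosome in relative coverage under all 13 alternatives, from 1.12 to 1.48 (in the 55 libraries below 1% without crystal violet it was second), and passed the test after adjustment in 3: libraries below 1% coverage (1.48), the mean of single-library ratios (1.22) and the median of the other autosomes as reference (1.30). The gene-rich to gene-poor ratio kept its call under all 6, from 1.24 to 1.41, but the difference from the other autosomes had p = 0.0589 with the limits for gene-rich and gene-poor set on chromosome 11 alone. Run length was -0.0675 to -0.0152 with the pooled reference and turned to 0.0661, and 0.0451 over scattered calls, with autosomes taken one by one. Linkage differences that were within error also changed sign: with at least 5 libraries per window at 10 Mb (-0.0132), with at least 10 at 4, 10, 20 and 40 Mb (-0.0163, -0.0392, -0.0279 and -0.0144), as log2 observed over expected co-calls at 4, 10 and 20 Mb (-0.0103, -0.0446 and -0.0300), and without subtraction at 40 kb, 200 kb and 1 Mb (0.0172, 0.0235 and 0.0219). At least 10 libraries per window put 1 Mb beyond 2 SE (-0.0395). The cause was not tested. Crystal violet against unstained gave 1.94 and 0.426 with at least 500 calls, with no test since too few crystal violet libraries were left, so that 2 calls became 0. Leaving out single libraries gave 1.27 to 2.09 for coverage, 0.298 to 0.592 for run length, and 0 to 2 calls. On the ratio scale, 3 µl against 8 µl of proteinase K turned to 0.0754, not past the test. No paired analysis was possible because replicate numbers only name libraries. The absence of read counts limits all values to called windows.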
